A study of Homo sapiens with 8 samples.

Results

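The nuclear genes of respiratory complexes III, IV and V and of cytochrome c were compared between normoxic and hypoxic SQ20B cells. Members were chosen by symbol. They were the genes whose symbol begins with UQCR, UQCC, ATP5, or COX followed by a digit, together with CYC1, CYCS, NDUFA4 and NDUFA4L2. The rule found 62 of the 14528 named genes in the table, with 92 of its 24812 transcripts. Of these 62 genes, 59 had a mean level over the conditions of at least 0.5 FPKM, out of 12106 genes that passed this limit. Changes below are counted over genes at or above it. Counts of member promoters and of member transcript lengths took members at any level and were set against genes that passed the limit. FPKM divides fragment counts by transcript length and sequencing depth, so that levels of different genes can be set side by side.

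SQ20B is an established human head and neck cancer line, of laryngeal squamous origin. Poly(A) RNA was sequenced from 4 normoxia replicates and from 4 hypoxia replicates kept at 0.5% O2 for 16 h. The labels name no genetic change or drug in either group, and their treatment entry reads the same for both conditions, so the conditions were taken from the source name and title. The table gives 1 FPKM per transcript and condition, the authors' value over the 4 replicates. From these values no spread between replicates can be computed and no test was made, the columns of the authors' own test were not used, and every difference below describes these 2 columns. Changes are log2((hypoxia FPKM + 0.1)/(normoxia FPKM + 0.1)) after the FPKM of all listed transcripts of a gene had been added. This scale understates the change of genes with low FPKM. Some members were listed through only part of their RefSeq transcripts. Among these were ATP5MC2 (1 of 12), COX20 (1 of 8) and COX7A2L (1 of 7). Others were COX4I1 (1 of 6), COX17 (1 of 5) and COX18 (1 of 4). Levels, changes and ratios of such members are those of the listed transcripts.

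Complex III passes electrons from ubiquinol to cytochrome c, a small soluble carrier, and complex IV passes them from cytochrome c to oxygen. Both pump protons across the inner mitochondrial membrane, and complex V, the ATP synthase, lets the protons return through its c-ring and uses the flow to make ATP. Most subunits are encoded in the nucleus, a few central ones in mitochondrial DNA, and dedicated assembly factors insert the haem, copper and iron-sulphur groups and join the parts. Transcription of the nuclear genes is known to depend on factors such as NRF1, the ETS family factor GABP and YY1.

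The promoters of the members are shown first, because binding of NRF1 near the start is textbook knowledge for several of these genes. RefSeq promoter windows of 300 bases (250 before and 50 after the start, GRCh38.p14) were matched for 48 of the 62 members and for 9251 of the genes at 0.5 FPKM or more. The NRF1 core GCGCATGC stood on either strand in 10 of the 48 member promoters (20.8%) and in 5.69% of the 9251. The stretches of 60 bases below are those 10, ordered from the largest decrease in hypoxia to the smallest. Each is written 5′ to 3′ on the strand of its gene and lies wholly before the start, and capitals mark the NRF1 core as read on either strand, with both readings overlapping where the run of capitals is longer.
CYCS, chr7:25125396-25125455, minus strand: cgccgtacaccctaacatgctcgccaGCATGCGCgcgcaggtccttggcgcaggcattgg
COX18, chr4:73069730-73069789, minus strand: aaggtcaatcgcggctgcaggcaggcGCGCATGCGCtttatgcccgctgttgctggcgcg
UQCC2, chr6:33711771-33711830, minus strand: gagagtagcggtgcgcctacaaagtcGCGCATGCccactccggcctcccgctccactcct
COX17, chr3:119677489-119677548, minus strand: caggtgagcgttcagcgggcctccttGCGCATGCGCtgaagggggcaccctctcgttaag
ATP5F1C, chr10:7788117-7788176, plus strand: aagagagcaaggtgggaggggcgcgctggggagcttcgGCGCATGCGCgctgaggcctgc
ATP5MC2, chr12:53676090-53676149, minus strand: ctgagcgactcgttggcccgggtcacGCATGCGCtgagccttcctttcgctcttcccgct
ATP5ME, chr4:674321-674380, minus strand: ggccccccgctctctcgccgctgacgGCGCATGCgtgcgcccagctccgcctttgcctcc
COX5B, chr2:97645900-97645959, plus strand: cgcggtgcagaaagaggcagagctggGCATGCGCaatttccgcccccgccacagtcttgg
COX6A1, chr12:120437869-120437928, plus strand: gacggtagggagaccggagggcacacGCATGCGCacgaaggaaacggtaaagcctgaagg
ATP5PF, chr21:25735141-25735200, minus strand: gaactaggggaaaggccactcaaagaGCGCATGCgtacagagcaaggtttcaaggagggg

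These 10 genes span cytochrome c itself, 2 assembly factors of complex IV, 1 of complex III, 2 subunits of complex IV and 4 of complex V. Their log2 changes ran from -0.83 for CYCS to -0.17 for ATP5PF. Their median was -0.40, and that of the 36 members with a promoter and no NRF1 core was -0.29. Counted from the start, the first core began between position -218 (COX6A1) and position -22 (ATP5F1C).

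The other motifs were read in the same windows and on both strands. The ETS core CCGGAAG stood in 16 of the 48 member promoters (33.3%) and in 20.6% of the 9251, and the YY1 core AAGATGG in 10 (20.8%) and in 7.74%. At least 1 of the NRF1, ETS and YY1 cores was present in 26 member promoters (54.2%) and in 30.3% of the 9251, and 8 members held more than 1. The short core bound by hypoxia-inducible factors, ACGTG or GCGTG, stood in 33 member promoters (68.8%) and in 63.7% of the 9251. The E-box CACGTG, which contains ACGTG, stood in 7 (14.6%) and in 10.2%. A match of letters is a description and not a bound site.

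Members with and without each of the other cores were set side by side, with no test. The median log2 change was -0.26 in the 16 members with an ETS core and -0.34 in the 30 without. It was -0.29 in the 10 with a YY1 core and -0.31 in the 36 without. It was -0.40 in the 32 with the core of hypoxia-inducible factors and at least 0.5 FPKM, and -0.23 in the 14 without. It was -0.56 in the 7 with an E-box and -0.29 in the 39 without. These medians lie within the spread of single members. Of the 6 members that were at least 1.5-fold lower in hypoxia and had a promoter entry, 3 held the NRF1 core and 0 the ETS core. The YY1 core stood in 1, the E-box in 2 and the core of hypoxia-inducible factors in 6. Over all 48 member promoters the shares, in the same order, were 20.8%, 33.3%, 20.8%, 14.6% and 68.8%. CYC1, UQCC3 and ATP5MF-PTCD1, also lower, had no promoter entry. Counts over 6 genes are small, and no link to the change was tested.

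Most members had a lower FPKM in the hypoxia column than in the normoxia column, by a modest amount. As deposited, 55 of 59 members (93.2%) lay below 0, against 56.4% of all genes, and their median log2 change was -0.31 against -0.070 for all genes. The direction of many depended on scaling. After both columns were scaled to equal sums, 42 of the 59 (71.2%) lay below 0, against 36.3% of all genes, and after quantile normalization 38 (64.4%), against 51.5%. The median of members was -0.081 after equal sums, against 0.15 for all genes. After quantile normalization it was -0.037, against -0.019. A decrease of at least 1.5-fold was seen in 9 members (15.3%), against 11.2% of all genes. An increase of that size was seen in 0 members, against 9.95% of all genes. The share of decreases was thus close to the background and that of increases below it. The interquartile range of the changes was 0.26 in members and 0.60 in all genes. It was 0.43 in genes at 50 FPKM or more and 0.26 in complex I subunits, so a narrow spread was not particular to members.

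**Figure D1:**
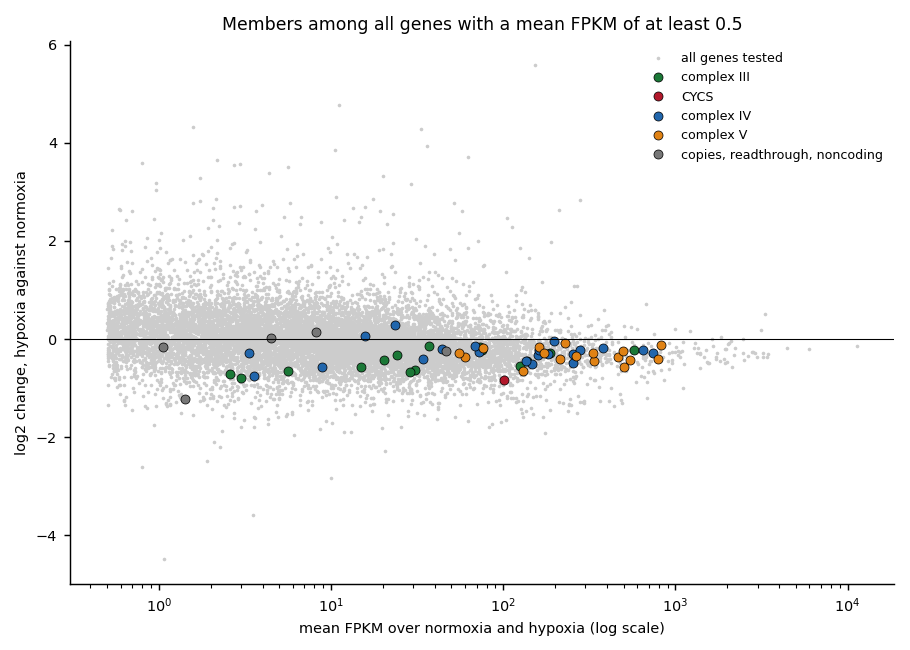
Each point is a gene at 0.5 FPKM or more; the x axis is the mean FPKM over normoxia and hypoxia (log scale) and the y axis the log2 change, hypoxia against normoxia, from FPKM as deposited. Grey points are all 12106 genes and coloured points the 59 members, of which the 38 at 50 FPKM or more all lie below 0 as deposited (28 after equal sums), as do 78.9% of genes at that level.

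Level bears on this comparison, since abundant genes as a class were lower in hypoxia as deposited. Among the 1771 genes at 50 FPKM or more, 78.9% lay below 0, 16.8% were at least 1.5-fold lower, 3.78% were at least 1.5-fold higher, and the median was -0.27. After equal sums 55.3% of them lay below 0, and after quantile normalization 52.1%. The 38 members at this level all lay below 0 (28 after equal sums and 21 after quantile normalization), with 2 at least 1.5-fold lower and a median of -0.29. Many members also have short transcripts. The canonical transcript was under 1000 bases in 28 of the 62 members, with a median of 1182 bases against 3200.5 for all genes with a length. Of the 310 abundant genes with a canonical transcript under 1000 bases, 88.1% lay below 0, 26.1% were at least 1.5-fold lower, 1.61% were at least 1.5-fold higher, and the median was -0.35. After equal sums 68.1% of these lay below 0, and after quantile normalization 58.4%. The 21 members among them all lay below 0 (15 after equal sums and 9 after quantile normalization), with a median of -0.27 and 1 past the limit. The median of these short, abundant members as deposited thus lay above that of the short, abundant genes. The part of transcript level and length in these changes was not tested.

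The members together accounted for 12138 FPKM in normoxia and 9797 in hypoxia, or 2.28% and 2.15% of the FPKM of all named genes. The summed FPKM of the whole table was 536005 in normoxia and 458431 in hypoxia, so that scaling to equal sums adds about 0.23 to every log2 change. The sums over subunits were 1389 and 1131 FPKM for complex III, 3574 and 2983 for complex IV, and 6126 and 4864 for complex V. Complex V thus held the largest share of these transcripts in both conditions.

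**Figure D2:**
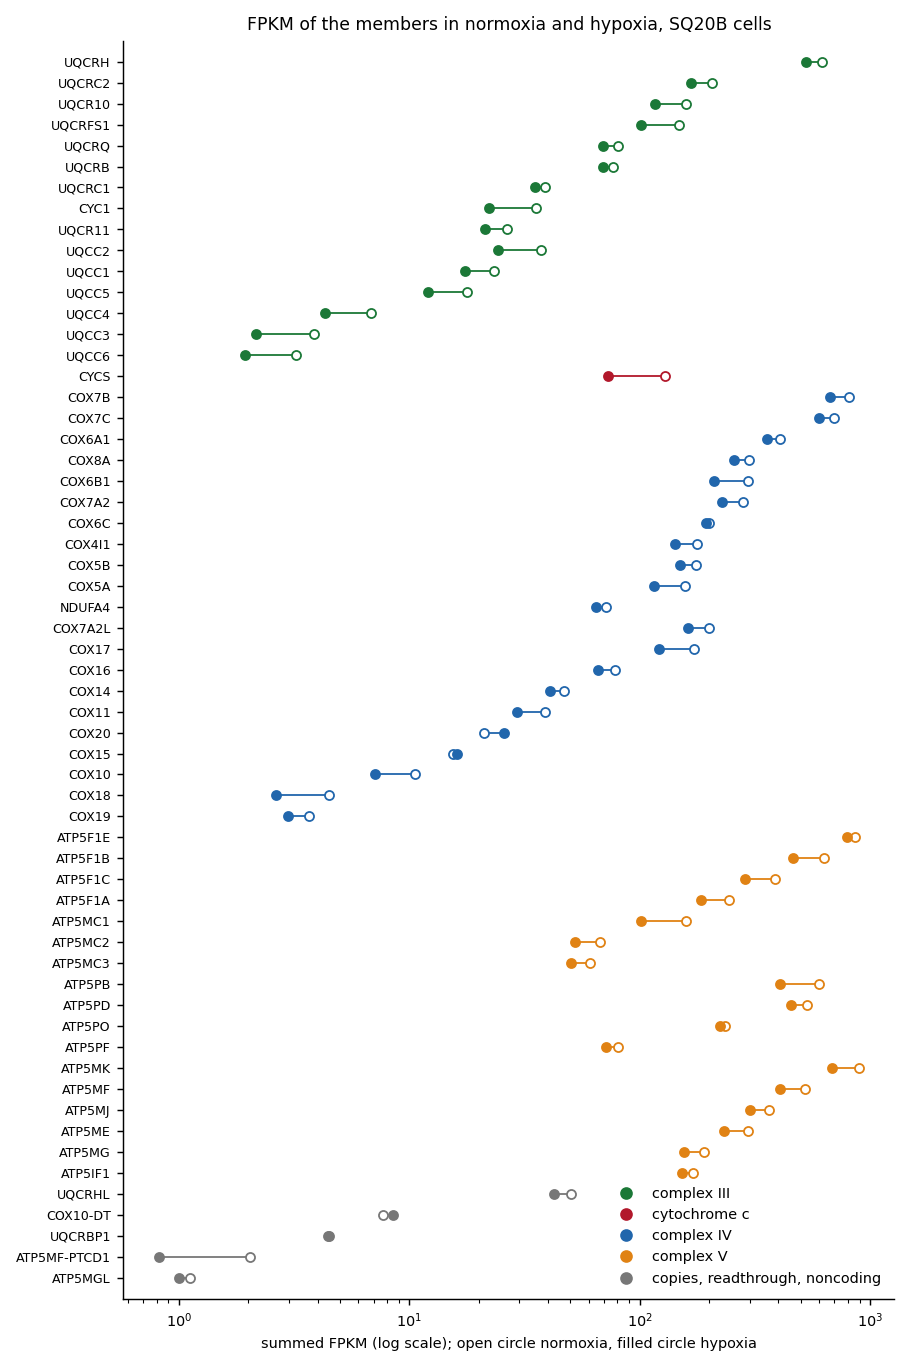
Summed FPKM (x axis, log scale) of the 59 members, by complex; open circles are normoxia and filled circles hypoxia, each 1 value over 4 replicates. Levels span from about 1 FPKM (ATP5MGL, 1.12 and 0.998) to ATP5MK (898 and 682), and the filled circle lies left of the open one in 55 members (42 if the columns are scaled to equal sums).

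Complex III subunits were lower in hypoxia as deposited, with the catalytic ones at the low end. All 9 lay below 0 (6 after equal sums and 5 after quantile normalization), with a median of -0.29. As deposited 56.4% of all genes and 78.9% of genes at 50 FPKM or more lay below 0. At least 1.5-fold lower were 11.2% and 16.8%. CYC1, the haem-bearing cytochrome c1 that hands electrons to cytochrome c, went from 35.3 to 22.2 FPKM (-0.67), the only one of the 9 past the limit. UQCRFS1, the Rieske iron-sulphur protein, went from 148 to 102 FPKM (-0.54), short of the limit, which is 0.58 on the log2 scale. UQCR10, a small subunit, had 158 and 116 FPKM (-0.44).

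The core proteins and the remaining small subunits moved less. UQCRC2, a core protein, had 205 FPKM in normoxia and 168 in hypoxia (-0.29), while its partner UQCRC1 had 38.7 and 35.2 (-0.14). UQCRH, the hinge protein and the most abundant subunit, had 620 and 528 FPKM (-0.23). UQCR11, UQCRQ and UQCRB, which are small subunits, changed by -0.32, -0.21 and -0.15. UQCRC1, UQCRQ and UQCRB were those that turned above 0 after equal sums.

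The assembly factors of complex III showed larger decreases than its subunits. All 6 UQCC genes lay below 0 as deposited, after equal sums and after quantile normalization alike, with a median of -0.64 as deposited. Of the 6, 4 were at least 1.5-fold lower as deposited, against 11.2% of all genes. Past the limit were 0 after equal sums and 3 after quantile normalization. With a pseudocount of 1, UQCC4 and UQCC6 fell within the limit. UQCC3, which acts with cytochrome b early in assembly, went from 3.85 to 2.17 FPKM (-0.80). UQCC6 went from 3.24 to 1.94 FPKM (-0.71), and UQCC4 from 6.83 to 4.33 (-0.65). UQCC2, which binds newly made cytochrome b together with UQCC1 and whose promoter is shown above, went from 37.5 to 24.3 FPKM (-0.62). UQCC5, at 17.9 FPKM in normoxia, lay just short of the limit (-0.57), and UQCC1 changed least (23.4 and 17.4 FPKM, -0.42). Except for UQCC2 and UQCC1 these genes had under 20 FPKM in both conditions.

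Cytochrome c was among the members with the largest decreases. CYCS, on chromosome 7 (25158269 to 25164980, hg19), went from 129 FPKM in normoxia to 72.6 in hypoxia, 1.78-fold lower. Its log2 change was -0.83 as deposited, -0.61 after equal sums and -0.58 after quantile normalization, the last just short of the limit. As deposited only the readthrough ATP5MF-PTCD1 lay lower, with UQCC3 close behind, and after quantile normalization UQCC3 (-0.86), COX18 (-0.80), UQCC6 (-0.77) and UQCC4 (-0.67) also lay lower than CYCS. CYCS and CYC1, the carrier and the subunit that loads it, stood in a ratio of 3.66 in normoxia and 3.26 in hypoxia.

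**Figure D3:**
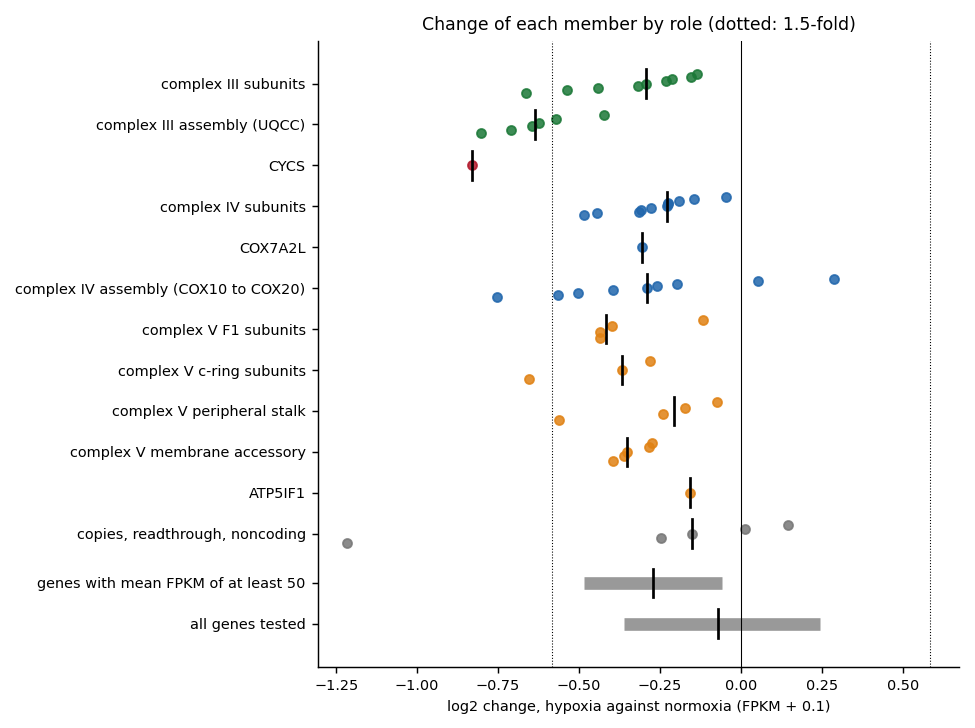
Log2 change of each member (x axis, hypoxia against normoxia, FPKM as deposited) by role; points are genes, black ticks are medians, grey bars span the interquartile range of the genes named beside them, and dotted lines mark 1.5-fold. UQCC assembly factors (median -0.64) and CYCS (-0.83) lie left of most subunits, and complex IV subunits have a median of -0.23, which turns to 0.075 after quantile normalization.

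As deposited, complex IV subunits had the smallest median change of the 3 complexes and the narrowest spread. All 11 lay below 0 as deposited, but 7 after equal sums and 3 after quantile normalization, and 0 were past the limit. Their median was -0.23 as deposited, with an interquartile range of 0.10. All 11 had 50 FPKM or more, and 78.9% of genes at that level lay below 0 as deposited. After equal sums 55.3% of those genes did, and after quantile normalization 52.1%. As deposited 16.8% of them were at least 1.5-fold lower. The range of the subunits ran from COX6B1, a subunit on the side of cytochrome c, with 295 and 211 FPKM (-0.49), to COX6C with 201 and 194 FPKM (-0.046). COX6C was the 1 member that turned above 0 when changes were centred on the median of all genes.

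Within complex IV, the most abundant subunits were small ones. COX7B had 812 FPKM in normoxia and 670 in hypoxia (-0.28), and COX7C 699 and 598 (-0.23). COX5A, which sits on the matrix side, had 157 and 115 FPKM (-0.44), while COX5B, the zinc-binding subunit, had 175 and 149 (-0.23). Since COX5A was lower by more than COX7B, the ratio of COX7B to COX5A was 5.17 in normoxia and 5.80 in hypoxia. COX7A2 had 281 and 227 FPKM (-0.31), and COX7A2L, a related protein that ties complex III to complex IV in supercomplexes, had 200 and 162 (-0.31), so that their ratio was 1.41 and 1.40.

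Several complex IV subunits exist in more than 1 form, and SQ20B cells carried the common forms. COX4I1, the common form of subunit 4, had 177 FPKM in normoxia and 142 in hypoxia (-0.31). COX4I2, the form known for its induction by low oxygen in some tissues, was not analysed here. COX6A1 had 406 and 356 FPKM (-0.19), and COX8A 299 and 256 (-0.22). The tissue-restricted forms with values were low. COX6B2, listed through 1 of its 5 RefSeq transcripts, had 0.236 and 0.292 FPKM and COX8C 0.0556 and 0.108, both under the limit of 0.5. The level of the whole COX6B2 gene is not known from this value. COX6A2, COX7A1 and COX7B2 were not analysed here. NDUFA4, once counted with complex I and now named COXFA4 as a complex IV subunit, had 71.6 FPKM in normoxia and 64.8 in hypoxia (-0.14, and 0.081 after equal sums). NDUFA4L2, its hypoxia-inducible relative, was not analysed here. The related COXFA4L3, which is no member and was chosen after its values were seen, had 30.0 and 37.6 FPKM (0.33).

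The assembly factors of complex IV among the members were more varied than its subunits. Of 9, 7 lay below 0 as deposited (6 after equal sums and 7 after quantile normalization), with 1 past the limit and a median of -0.29. As deposited 56.4% of all genes lay below 0 and 11.2% were at least 1.5-fold lower. COX18, which helps to insert subunit 2 into the membrane, went from 4.50 to 2.63 FPKM (-0.75). COX10, which makes haem O, had 10.6 and 7.13 FPKM (-0.56), just short of the limit. COX15, which turns haem O into the haem A that complex IV needs, had 15.5 and 16.1 FPKM (0.054).

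Most of the other assembly factors were lower as deposited, with 1 exception. COX17, a copper chaperone, had 172 FPKM in normoxia and 122 in hypoxia (-0.50). COX11, which carries copper to subunit 1, had 38.6 and 29.3 FPKM (-0.40), and COX19 had 3.66 and 2.98 (-0.29). COX20, a chaperone of subunit 2, went the other way, from 21.0 to 25.7 FPKM, a log2 change of 0.29 as deposited, 0.51 after equal sums and 0.42 after quantile normalization. It was the highest of the 59 and still within 1.5-fold as deposited. COX16 and COX14, which act on subunits 2 and 1, changed by -0.26 and -0.20.

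The ATP synthase subunits lay below 0 throughout as deposited. All 16 did so (13 after equal sums and 11 after quantile normalization), with a median of -0.36 and 1 past the limit. All 16 had 50 FPKM or more. Among genes at that level 78.9% lay below 0 as deposited, 55.3% after equal sums and 52.1% after quantile normalization. As deposited 16.8% of those genes were at least 1.5-fold lower. In the catalytic F1 head, ATP5F1B, the beta subunit that holds the catalytic sites, had 628 FPKM in normoxia and 464 in hypoxia (-0.44). ATP5F1A, the alpha subunit, had 244 and 185 FPKM (-0.40), and ATP5F1C, the gamma subunit of the rotating shaft, had 386 and 285 (-0.44). The proportions of these subunits changed little. Beta to gamma was 1.63 in both conditions, and beta to alpha was 2.57 in normoxia and 2.51 in hypoxia. ATP5F1E, the epsilon subunit, had 862 and 795 FPKM (-0.12, and 0.11 after equal sums). ATP5F1D, the delta subunit, was listed at 0.140 and 0.0754 FPKM, a value for 1 of its 2 RefSeq transcripts, so that the level of the whole gene is not known from it.

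In the c-ring, the genes encode the same mature protein and differed in size of change. ATP5MC1, the most abundant of them, went from 159 to 101 FPKM, 1.57-fold lower (-0.65). ATP5MC2 had 67.6 and 52.4 FPKM (-0.37), and ATP5MC3 had 61.0 and 50.3 (-0.28). ATP5MC1 therefore made up 55.3% of the listed c-ring FPKM in normoxia and 49.7% in hypoxia. Since ATP5MC2 was listed through 1 of its 12 RefSeq transcripts, the share over whole genes is not known. All 3 lay below 0 under each scaling.

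The peripheral stalk, which holds the head still, held both a large and a very small change. ATP5PB had 598 FPKM in normoxia and 405 in hypoxia (-0.56). ATP5PD had 534 and 453 FPKM (-0.24), ATP5PF 80.3 and 71.3 (-0.17), and ATP5PO, the stalk subunit at the top of the head, 235 and 223 (-0.075). After equal sums ATP5PF and ATP5PO lay above 0 and the other two below. The 5 accessory subunits of the membrane part ran from -0.40 for ATP5MK (898 and 682 FPKM, the most abundant member in normoxia) to -0.27 for ATP5MJ (365 and 302). Between them, ATP5MF had 522 and 407 FPKM, ATP5ME 296 and 232, and ATP5MG 190 and 156.

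ATP5IF1, the inhibitor that stops the synthase from running backwards and burning ATP, changed little. It had 170 and 152 FPKM, with a log2 change of -0.16 as deposited, 0.069 after equal sums and 0.12 after quantile normalization. Its ratio to the beta subunit ATP5F1B was 0.270 in normoxia and 0.328 in hypoxia, a comparison within each column that scaling to equal sums does not alter.

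Taking subunits and assembly factors as classes, the assembly factors among the members had the larger median decrease, most of all for complex III. The 36 subunits had a median of -0.29 as deposited, with 2 past the limit, and 26 lay below 0 after equal sums and 19 after quantile normalization. The 15 assembly factors had a median of -0.50, with 5 past the limit, and 12 lay below 0 after equal sums and 13 after quantile normalization. Past the limit were 0 assembly factors after equal sums and 4 after quantile normalization. At least 1.5-fold lower were 11.2% of all genes as deposited, 4.94% after equal sums and 9.72% after quantile normalization. In the same order, 56.4%, 36.3% and 51.5% of all genes lay below 0. The levels of the assembly factors were lower, with a median of the mean FPKM of 15.8 against 206 for subunits. By complex, the UQCC genes had a median of -0.64 against -0.29 for complex III subunits. The complex IV factors among the members had -0.29 against -0.23. Outside the symbol rule the medians were -0.50 for complex III factors, -0.45 for complex IV and -0.31 for complex V, whose subunits had -0.36. The difference between the classes was not tested.

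The remaining 5 members are copies, a readthrough transcript and a noncoding gene. ATP5MF-PTCD1, transcribed across ATP5MF and its neighbour, went from 2.03 to 0.816 FPKM (-1.22), the largest decrease of all members, in a locus (chromosome 7, 99006600 to 99063824, hg19) whose reads it shares with ATP5MF. UQCRHL, a near copy of UQCRH, had 50.2 and 42.2 FPKM, and the ratio of UQCRH to it was 12.3 in normoxia and 12.5 in hypoxia. UQCRBP1, a pseudogene of UQCRB, had 4.44 and 4.49 FPKM (0.014), and ATP5MGL had 1.12 and 0.998 (-0.15). COX10-DT, a noncoding gene listed with the same locus as COX10, had 7.71 and 8.54 FPKM (0.14). How reads were divided between such copies and their parent genes is uncertain.

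Single transcripts were mostly lower as deposited, as the genes were. Of 82 member transcripts with a mean of at least 0.5 FPKM, 76 lay below 0 as deposited. The share over all transcripts is not given here. By gene, 56.4% of all genes and 78.9% of genes at 50 FPKM or more lay below 0. Transcripts were not counted under the other scalings. Only 16 members had more than 1 such transcript. In the other members 1 transcript sets nearly all of the gene's value, so the count is no check of transcript against gene. In 2 of the 16 members such transcripts moved in opposite directions. The main ATP5F1C transcript, NM_001001973, had 379 FPKM in normoxia and 276 in hypoxia (-0.46), while NM_005174 had 7.10 and 9.33 (0.39) and made up 1.84% of the gene's FPKM in normoxia and 3.27% in hypoxia. In ATP5IF1, NM_016311 had 165 and 148 FPKM (-0.16) and carried 97.1% of the gene's FPKM in normoxia, while NM_178191 had 3.07 and 3.24 (0.076).

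The transcripts of ATP5MF differed the most in size. NM_001003713 had 316 FPKM in normoxia and 267 in hypoxia (-0.24), and NM_004889 had 198 and 136 (-0.55). The minor NM_001003714 had 3.99 and 1.62 FPKM (-1.25). The share of NM_001003713 in the gene's FPKM was 60.5% in normoxia and 65.7% in hypoxia, and taking this transcript alone gave the gene a change of -0.24 in place of -0.36.

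**Figure D4:**
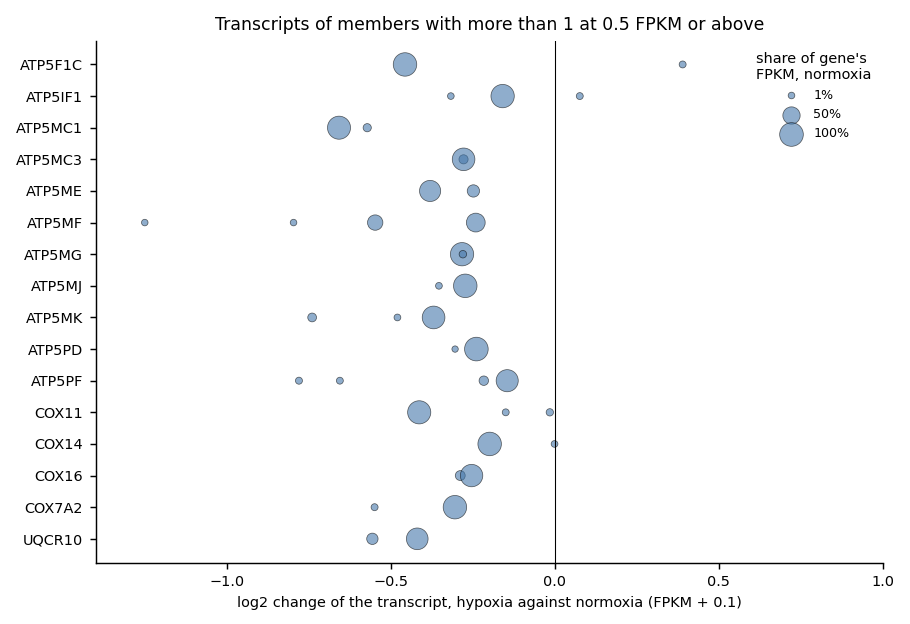
Log2 change (x axis, hypoxia against normoxia, FPKM as deposited) of the transcripts with a mean of at least 0.5 FPKM in the 16 members that have more than 1; the area of a circle grows with the transcript's share of the gene's FPKM in normoxia. The large circles lie below 0 in every row, and transcripts of ATP5F1C (0.39) and ATP5IF1 (0.076) lie above 0.

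Assembly factors outside the symbol rule were read from lists in the same way. The list for complex IV held 18 genes, of which 16 were listed and at or above 0.5 FPKM. Of these, 15 lay below 0 as deposited (13 after equal sums and 14 after quantile normalization), 7 were at least 1.5-fold lower (3 after equal sums), and the median was -0.45. Of all genes, 56.4% lay below 0 and 11.2% were at least 1.5-fold lower. CMC1 was the 1 above 0 as deposited (32.1 and 32.8 FPKM, 0.029). COA7, an assembly factor, had the largest decrease, from 20.7 to 5.48 FPKM (-1.90). TMEM177, which acts with COX20 on subunit 2, had 6.47 and 3.24 FPKM (-0.97), and COA4 had 90.9 and 50.3 (-0.85). SCO1, a copper chaperone that receives copper from COX17, had 76.6 and 44.5 FPKM (-0.78). TACO1, an activator of the translation of subunit 1, had 22.5 and 13.2 FPKM (-0.76), COA6 had 116 and 74.8 (-0.63), and COA1 had 37.4 and 24.3 (-0.62).

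For complex III, BCS1L, which inserts the Rieske protein, went from 11.2 to 6.64 FPKM (-0.74), and all 3 listed factors outside the symbol rule lay below 0, with a median of -0.50. For complex V, 6 of 7 assembly factors lay below 0 with 0 past the limit and a median of -0.31. Counts after equal sums and after quantile normalization were 6 each. As deposited 56.4% of all genes lay below 0 and 11.2% were at least 1.5-fold lower. Of the 6 factors listed for the switch of subunit 4 and for oxygen-dependent control of complex IV, 1 was past the limit. This was HIGD1A, a membrane protein that binds complex IV, with 62.9 and 40.5 FPKM (-0.64). LONP1, the protease known to remove the common subunit 4 form, had 4.07 and 4.17 FPKM (0.033).

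Of the genes that handle cytochrome c, 1 was lower and 2 were higher. HCCS, which attaches haem to cytochrome c and c1, had 19.7 FPKM in normoxia and 13.7 in hypoxia (-0.51). APAF1, the scaffold that cytochrome c activates in apoptosis, had 9.78 and 13.8 FPKM (0.49), and CASP9, the protease recruited to it, had 1.89 and 3.45 (0.83). As deposited, CASP9 alone of the 3 was past the limit.

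The regulators of nuclear respiratory genes were mostly lower. Of 9, 8 were at or above 0.5 FPKM, and all 8 lay below 0 as deposited (7 after equal sums and 7 after quantile normalization), with 4 at least 1.5-fold lower and a median of -0.64. After equal sums 3 were past the limit and the median was -0.42. Of all genes, 56.4% lay below 0 and 11.2% were past the limit as deposited. The coactivators PPRC1 (4.13 and 1.92 FPKM, -1.07) and PPARGC1B (0.969 and 0.439, -0.99) had the largest decreases. PPARGC1B lay under 0.5 FPKM in hypoxia and had a mean of 0.704 FPKM, so that its change rests on very low levels. GABPB1, the partner of the ETS factor GABPA, had 49.2 and 26.5 FPKM (-0.89), while GABPA itself had 20.4 and 19.0 (-0.097). ESRRA, a nuclear receptor that acts with these coactivators, had 9.43 and 5.46 FPKM (-0.78). NRF1 had 5.99 and 4.18 (-0.51) and YY1 86.7 and 63.9 (-0.44), both within the limit. TFAM, counted in the 8 and in their median, acts on mitochondrial DNA and not on nuclear genes. It had 81.1 and 59.3 FPKM (-0.45).

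The other respiratory complexes give a nearby comparison. All 36 complex I subunits with at least 0.5 FPKM lay below 0 as deposited (25 after equal sums and 24 after quantile normalization), with 3 past the limit and a median of -0.37. The 3 were NDUFS8 (6.98 and 3.37 FPKM, -1.03), NDUFB10 (86.0 and 50.1, -0.78) and NDUFA13 (17.3 and 10.6, -0.70). Below 0 lay 56.4% of all genes as deposited, 36.3% after equal sums and 51.5% after quantile normalization. As deposited 11.2% of all genes were at least 1.5-fold lower. Complex II split, with SDHB at 216 and 138 FPKM (-0.65) and SDHD at 264 and 203 (-0.38), against SDHC at 9.79 and 12.3 (0.32) and SDHA at 38.2 and 40.8 (0.095). No difference between these complexes and complexes III to V was tested.

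**Figure D5:**
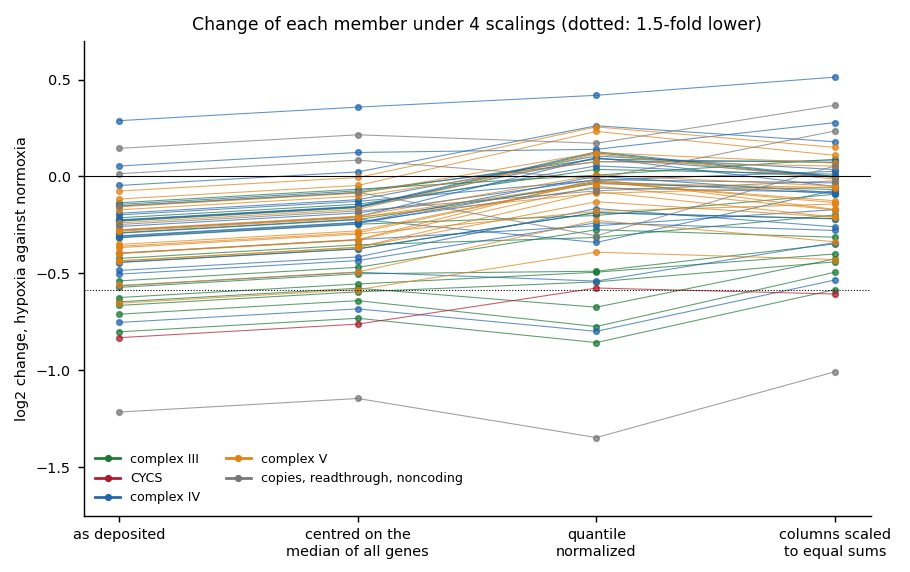
Log2 change of each of the 59 members (y axis) under 4 scalings of the same FPKM columns (x axis); each line is 1 gene, and the dotted line marks 1.5-fold lower. Lines below 0 number 55 as deposited, 54 after centring on the median of all genes, 38 after quantile normalization and 42 after scaling to equal sums, while CYCS and the UQCC genes stay below 0 under all 4.

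The labelled cell type was checked against marker lists. Of 9 markers of squamous epithelium, 8 were at or above 0.5 FPKM, and KRT14 was not analysed here. The means of the 8 ran from 4.18 FPKM for KRT6A to 420 for KRT5, and 4 lay above and 4 below 0. Of the 6 fibroblast and 4 leukocyte markers, 2 and 1 were listed, all under 0.5 FPKM. Of the 4 endothelial markers, only CDH5 was listed (4.78 and 2.83 FPKM). Of the 6 striated muscle markers, MB had 1.55 and 3.96 FPKM and TNNT1 5.74 and 9.37, and the other 4 were not analysed here. The part of the CDH5, MB and TNNT1 signals in the results was not tested.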

How the data were processed

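The deposited FPKM values are the authors' values, 1 per transcript and condition over 4 replicates. Per the methods and the submitters' processing notes, reads from poly(A)-selected, stranded libraries were aligned with STAR 2.3.0.1 to hg19 and processed with Cufflinks 2.1.1 and RefSeq annotation. Columns of fold changes, test statistics, p-values and q-values hold the authors' own comparison and were not used. Depths of single samples were not analysed here, and intervals that need them are left out.

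RefSeq symbols (GRCh38.p14) were paired with 24293 of 24812 transcripts (97.9%), and FPKM was summed per gene. Changes used log2(FPKM + 0.1), genes with a mean of at least 0.5 FPKM and a limit of 1.5-fold. The planned limma test needs replicate values and was not run. Coordinates are hg19 for loci and GRCh38.p14 for promoters, counted from 1. Of the genes in RefSeq that meet the symbol rule, 128 pseudogenes and 7 others were not analysed here, 5 of them coding. Transcript lengths are those of GENCODE canonical transcripts. Protein sequences were not used here.

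The members and lists were chosen with earlier results of these data known. Named were the 8 members with the highest and the 8 with the lowest log2 change, pairs of alternative forms, the most abundant member of each role, CYC1, CYCS and ATP5IF1, members with transcripts of opposite direction, list genes past the limit, and LONP1 and HIGD1A; others are given to account for the members. Alternatives changed the scaling, the limits on FPKM and on fold, the pseudocount and the transcripts summed. The computation was tested on simulated data. Python 3.11.15, numpy 2.4.6, pandas 2.3.3 and matplotlib 3.10.9 were used.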

Additional observations from a re-analysis of the deposited data

How the results depend on the processing

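Medians were taken as moved when they shifted by more than 0.1 on the log2 scale, and counts when they changed by more than 1.5 times. With columns scaled to equal sums, 2 members were at least 1.5-fold lower instead of 9 (ATP5MF-PTCD1 and CYCS), where 4.94% of all genes were lower and 18.3% higher. The median log2 change was then -0.081 for members, -0.067 for complex III subunits, -0.0021 for complex IV and -0.13 for complex V, and the median of all genes was 0.15. After quantile normalization 5 members were lower (9.72% of all genes), with medians of -0.037 for members, -0.037 for complex III subunits, 0.075 for complex IV and -0.031 for complex V. Scaling thus turned 13 members after equal sums, 19 after quantile normalization and 1 after centring. When only genes at 5 FPKM or more were counted, 5 of 52 members were lower (12.5% of all genes). A limit of 1.2-fold gave 36 members lower and 1 higher (33.0% and 23.8% of all genes), and a limit of 2-fold gave 1 lower (2.62% of all genes). Pseudocounts of 1 and 0.01, no filter on low values, the most abundant transcript alone and coding transcripts alone turned 0 members and moved none of these medians. No paired analysis was possible because each condition is 1 pooled value. For the same reason the replicate block and leaving out single replicates were not run. Genes under the limit, such as ATP5F1D, rest on the lowest FPKM.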

Other observations

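For ATP5F1D, listed through 1 of its 2 RefSeq transcripts, the levels were 0.140 and 0.0754 FPKM, while the other F1 subunits ran from 244 to 862 FPKM in normoxia. Among complex I subunits, low levels were those of NDUFB7 at 2.39 FPKM in normoxia and 1.82 in hypoxia and NDUFA11 at 3.77 and 2.76, where the median over complex I subunits was 83.4 FPKM in normoxia. The cause was not tested.

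The range of levels within complex III was also wide. UQCRC1 and UQCRC2, which form the core together, had 38.7 and 205 FPKM in normoxia, and CYC1 and UQCRH, which bind each other, had 35.3 and 620.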
